A study of Mus musculus with 2 samples.

Results

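RNA polymerase II (Pol II) was followed along Fn1, the mouse gene for fibronectin, in mouse embryonic fibroblasts (MEF), connective tissue cells cultured from mouse embryos. Chromatin immunoprecipitation and sequencing (ChIP-seq) recovers the DNA bound to a protein. The antibody was 8WG16, raised against the tail of the largest Pol II subunit, a run of repeats at its C-terminal end. Both samples form 1 group: MEF in DMEM with 10% fetal bovine serum, with no genotype, strain, treatment or age given in the labels. They are called library 1 and library 2. The gel slice was 150 to 350 bp for library 1 and 150 to 300 bp for library 2, and each library has its own run code. Gel slice, run and sample cannot be told apart, and no label says that they came from separate cultures. The spread between them, here an SD over n = 2, may therefore be only technical.

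Fn1 was taken as chromosome 1 from 71513001 to 71588000 (mm8), 75 kb, plus 20 kb on each side. It is 1 of 42358 regions called in both libraries and 1 of 176 of these at least 20 kb wide, and it was chosen for its reads, so its level is a description and supports nothing. It holds 1 gene, 150 windows of 500 bp out of 4308660 windows tested in the genome, and 11444 of 17548967 reads in library 1 and 22579 of 10941174 in library 2. Reads are counted once per start and strand. Fn1 (gene ID 14268) is on the minus strand, so it starts at the high-coordinate end and is transcribed toward lower coordinates, and "below" here means in that direction. The link of the region to Fn1 comes from this definition. No annotation of mm8 was used, so exons, introns and the annotated start and end of Fn1 were not placed. In a gene table of GRCm38, used for names and order only, the neighbour on the low-coordinate side is Atic, an enzyme of purine synthesis, and on the high-coordinate side the noncoding RNA gene Apol7d. Promoter strands in the matching sequence table place Atic on the plus strand, so Atic and Fn1 are transcribed toward each other.

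Fibronectin is a large secreted glycoprotein that cells assemble into fibrils of the extracellular matrix. Cells bind it through integrins, and fibroblasts are a classic source of it. Pol II starts at a promoter, often pauses just inside the gene, elongates through the gene body and slows again past the site where the transcript is cut and polyadenylated, before it leaves the DNA. ChIP-seq records where Pol II is bound, not whether it is moving.

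The libraries differed in background and in repeated starts, which touches every level given here. Background, the mean of windows left after called ones were removed, was 0.194 RPM (reads per 1000000 counted reads) for library 1 and 0.118 RPM for library 2. Repeated starts made up 10.1% and 4.54% of the nuclear alignments. Identical starts in both libraries were 1.21 times as many genome-wide, and 1.16 times as many in the Fn1 region, as after displacing one library by 20 to 50 bp, and the libraries were kept as separate samples. No input sample was analysed here. Intervals given below are exact 95% intervals and cover counting error only. Marker genes of fibroblasts and of other cell types were not analysed here, because they could not be placed in mm8.

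By its definition the region is an unbroken run of called windows. All 150 windows were called in library 1, where 3.41% of the windows of the genome were called, and all 150 in library 2, where 9.02% were called (2.9% in both). A window was called where its count exceeded background at an adjusted p of 0.01 (one-sided exact Poisson test, Benjamini-Hochberg over the genome). The region was drawn from such calls, so nothing is read from the count. Against a local background 133 of the 150 were called in both. That background was taken from the surroundings of each window, which include other windows of Fn1. The region held 652 RPM in library 1 and 2064 RPM in library 2, 1358 ± 998 RPM on average (SD, n = 2). Per kb this was 8.69 and 27.5 RPM, which stood 22.4-fold and 117-fold over the background of each library. A window held 13 to 312 reads in library 1, with a median of 71, and 11 to 267 reads in library 2, with a median of 155.5. The lowest of these windows lay at the low-coordinate edge, where the window from 71513001 had 13 and 11 reads. The next window outside had 9 and 15 reads and was called in library 2 only. At the other edge the window from 71587501 had 20 and 24 reads, and the first one outside had 8 and 21.

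**Figure D1:**
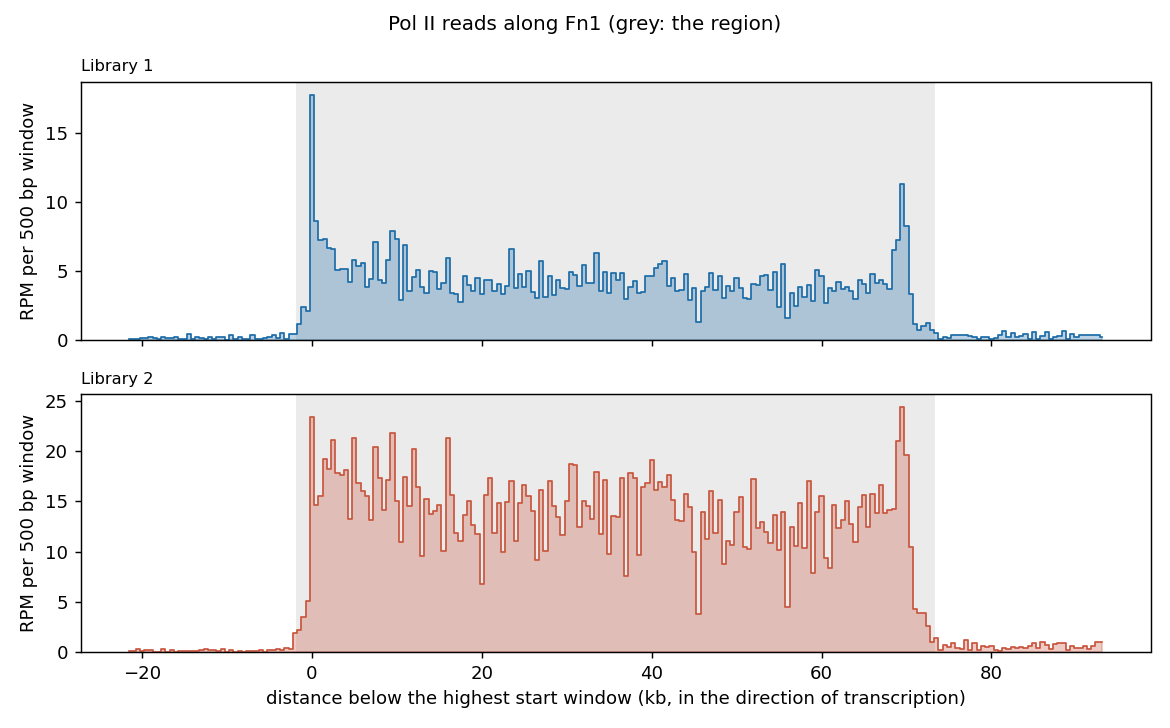
Pol II reads per 500 bp window (vertical axis, RPM) against the distance in kb from the highest window at the start of Fn1 (horizontal axis, positive in the direction of transcription), with library 1 above and library 2 below and the 75 kb region in grey. Both libraries show a peak at 0 kb, a continuous plateau and a second peak at 69.5 kb, and the start peak stands further over the plateau in library 1.

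The start of Fn1 was a narrow peak at the high-coordinate end, and both libraries placed it in the same window. This was the window from 71586001 to 71586500, with 312 reads (17.8 RPM) in library 1 and 256 reads (23.4 RPM) in library 2, or 20.6 ± 3.97 RPM (SD, n = 2). It was the highest of the 150 windows in library 1 and the second in library 2, after a window at the other end. On its upstream side the next window had 37 and 56 reads, and on its gene side the next had 151 and 160. The edge was sharp in steps of 100 bp. The step from 71586251 to 71586350 held 113 reads in library 1 and 99 in library 2, the step upstream of it 70 and 53, and the one after that 2 and 3. Further upstream, no 100 bp step within 3 kb of the start window passed 12 reads in library 1 or 17 in library 2.

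Reads around the start lay almost wholly on the gene side. From 1 to 5 kb below the start window there were 807 reads in library 1 and 1604 in library 2. From 1 to 5 kb above it there were 61 and 63. The ratio was 13.2 in library 1 and 25.5 in library 2. The region ends where called windows stopped, shortly above the start window, so the upper flank is low by that choice. The ratio is therefore a description, and no p-value is given for it. A summit is a window called in both libraries with at least 2 RPM and none higher within 2 kb. Of 12016 such summits in the genome, 47.2% had unequal flanks in library 1 and 61.1% in library 2, and 41.6% to the same side in both (two-sided exact binomial test, Benjamini-Hochberg). In windows of 1000 bp the nearest summit lay inside the gene, at 71584001, and its log2 ratio of low to high side was 0.66 in library 1 and 1.83 in library 2, against 3.73 and 4.67. The first 5 kb beyond the high-coordinate edge, toward Apol7d, had 0.524 RPM per kb in library 1 and 0.768 in library 2, and the 15 kb after that 0.308 to 0.376 and 0.201 to 0.274 RPM per kb in steps of 5 kb.

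How high the start stood over the gene body differed between the libraries. The start zone, 3 windows centred on the summit window placed with the other library, held 500 reads in library 1 and 472 in library 2. The body, from 2 to 60 kb below the start, held 8707 and 17979 reads in 116 windows, 75.1 and 155 per window. After subtraction of background, the density of the start zone was 2.28 times that of the body in library 1 (interval 2.07 to 2.5) and 1.02 times in library 2 (0.92 to 1.11), 1.65 ± 0.89 on average (SD, n = 2). For the summit window alone the ratios were 4.31 and 1.66. The intervals of the 3-window ratio do not overlap, and that of library 2 includes 1. The zone takes in the low upstream window, with its 37 and 56 reads. In windows of 1000 bp the ratios were 1.45 and 0.76. There the zone of library 1 was placed inside the gene, by the highest window of library 2 at 71583001, so the 1.45 is not that of the start peak.

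**Figure D2:**
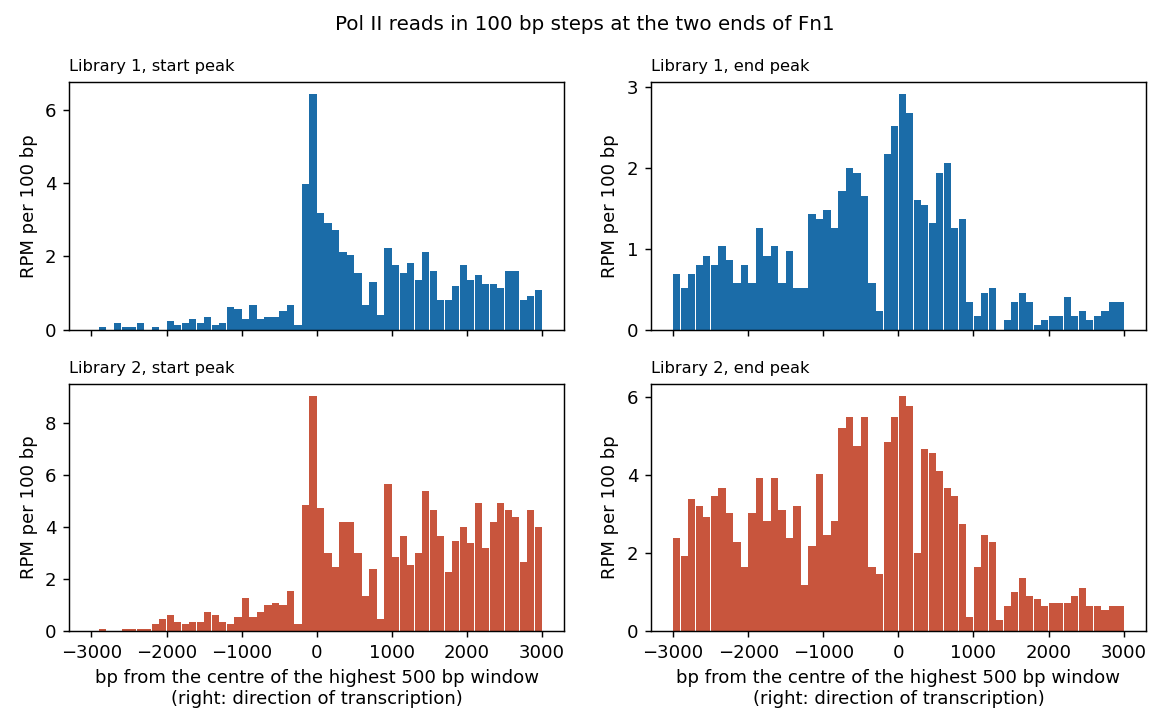
Pol II reads in steps of 100 bp (vertical axis, RPM) within 3 kb of the centre of the highest window at the start (left) and at the end (right) of Fn1, for library 1 (top) and library 2 (bottom); transcription runs to the right. The start rises from 2 and 3 reads in one step to 70 and 53 in the next, while the end peak is spread over more than 1 kb.

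Further measures of the zones and the region are given here, and no link of them to the height of the start was tested. Each distinct start in the start zone had been read 1.5 times in library 1 and 1.24 times in library 2, against 1.17 and 1.16 times in the body. Reads occupied 16.7% of positions and strands in the start zone of library 1 and 15.7% in library 2. In the body they occupied 7.51% and 15.5%. These shares are the collapsed counts over zone length, so they restate the densities and are no separate measure. By the repeated reads, counting each start once removed a larger share of the reads from the start zone than from the body in both libraries. With all reads kept the ratio of start to body was 2.93 in library 1 and 1.09 in library 2. The offset at which the 2 strands of the region matched best, a measure of fragment length, was 92 bp for library 1 against 99 bp for library 2. The plus strand held 49.9% and 50.1% of the reads.

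The body of Fn1 was a plateau with a shallow fall from the start side to the end side, of nearly the same size in both libraries. From 2 to 31 kb below the start the read density was 1.13 times that from 31 to 60 kb in library 1 (interval 1.09 to 1.18) and 1.13 times in library 2 (1.10 to 1.16), 1.131 ± 0.005 on average (SD, n = 2). The fall was not even. From 2 to 10 kb the density was 10.99 RPM per kb in library 1 and 34.5 in library 2. From 10 to 40 kb it kept between 8.26 and 8.69 in library 1, with no steady order. In library 2 it rose over these 3 steps, from 27.7 to 28.1 and 29.8. The density was 8.05 in library 1 and 26.5 in library 2 from 40 to 50 kb, and 7.48 and 24.6 from 50 to 60 kb. Both libraries thus had their highest level in the first step and their lowest in the last. The intervals count reads only, and windows of the body varied by more than counting gives, with a variance over mean of 5.03 in library 1 and 8.96 in library 2.

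Single windows of the body rose and fell together in the libraries. Over the 116 windows, Pearson's r between the libraries was 0.74 and Spearman's rho 0.71. This is across windows of 1 gene, which share their sequence, so no p-value is attached. The highest body window, from 71576501 to 71577000 and 9.5 kb below the start, had 139 reads (7.92 RPM) in library 1 and 238 (21.8 RPM) in library 2. The lowest, from 71540501 to 71541000, had 23 reads (1.31 RPM) and 42 (3.84 RPM), 0.32 and 0.26 of the body median. The window from 71530001 to 71530500 followed with 28 and 49 reads. The windows from 71540501 and 71530001 were the only 2 of the 116 windows under 0.6 of the body median in both libraries.

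Both of these windows held stretches in which no read began. In the region 35 stretches of at least 40 bp had no read start on either strand in either library, 2974 bp or 3.97% of its length, and the longest, from 71530076 to 71530385, spanned 310 bp. The window from 71530001 had 365 of its 500 bp in such stretches and the window from 71540501 had 97 bp. A longer stretch did not always go with a lower window: that from 71577501 had 172 bp and stood at 1.01 and 0.97 of the body median. The 20 body windows with such a stretch had a median of 57.5 reads in library 1 and 118 in library 2, against 76.5 and 164 in the 96 windows without. Other low windows had none: the window from 71531001, at 0.58 of the body median in library 1 (42 reads), and the window from 71566001, at 0.47 in library 2 (74 reads). A stretch with no starts lowers the count of its window by construction. Reads that fit more than 2 sites were not kept by the alignment, and the part of repeated sequence in these stretches was not tested. In the 96 windows without such a stretch, r was 0.65 and rho 0.64 between the libraries, and the upper 29 kb of the body still had 1.13 times the density of the lower 29 kb in library 1 and 1.10 times in library 2.

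**Figure D3:**
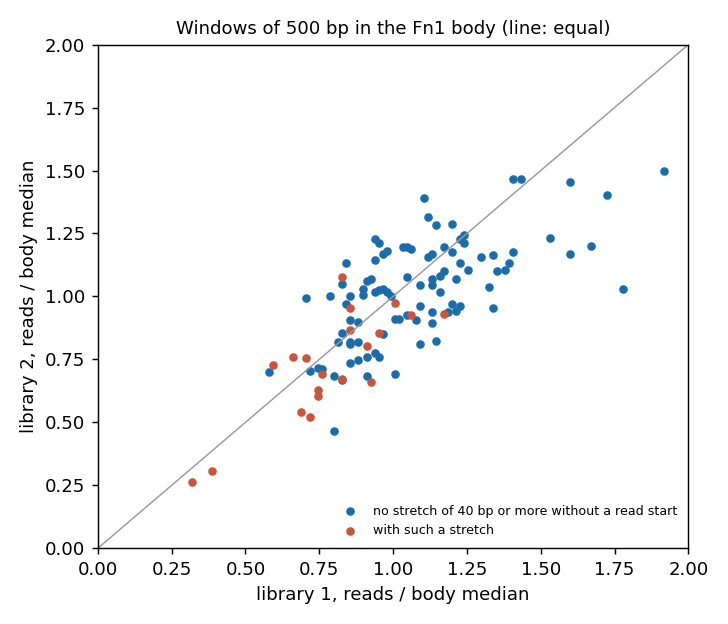
Reads in each of the 116 body windows of Fn1, divided by the body median, in library 1 (horizontal axis) and library 2 (vertical axis); red points are windows with a stretch of at least 40 bp in which no read began. The windows spread along the line of equal values (Pearson r = 0.74), and the lowest 2 points, at 0.32 and 0.26 and at 0.39 and 0.31, are both red.

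At the end of Fn1 a second peak rose from the plateau, again in the same window in both libraries. The window from 71516501 to 71517000, 69.5 kb below the start window, had 198 reads (11.3 RPM) in library 1 and 267 reads (24.4 RPM) in library 2, or 17.8 ± 9.28 RPM (SD, n = 2). Its neighbours had 145 and 215 reads on the low side and 127 and 230 on the gene side. The 3 windows centred on it stood at 2.14 times the body in library 1 (interval 1.94 to 2.35) and 1.54 times in library 2 (1.42 to 1.66), 1.84 ± 0.43 on average (SD, n = 2). This measure was added after the data were seen, and its summit was placed with the other library. The peak was broader than that at the start. In steps of 100 bp its highest value was 51 reads in library 1 and 66 in library 2, from 71516651 to 71516750. A stretch of 143 bp with no read start, from 71516948, lay inside the peak. The step from 71516951 held 4 and 16 reads.

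Pol II then fell away within about 2 kb. The window from 71515501 had 59 and 114 reads, and the window from 71515001 had 21 and 47. A stretch of 183 bp with no read start, from 71515234, lowers the count of the window from 71515001. From 1 to 5 kb on the low side of the end peak there were 102 reads in library 1 and 198 in library 2, against 576 and 1276 on the gene side. The low side here also reaches the edge of the region, which was set where called windows stopped, so these values too are a description. Of the 18 summits in the region, the 16 between start and end had ratios of low to high side of 0.70 to 1.13 in library 1 and 0.85 to 2.02 in library 2. The 2.02 belongs to the summit window 2.5 kb below the start, whose high side reaches past the start of the gene. The whole stretch more than 60 kb below the start, peak and fall together, had 0.92 times the density of the body in library 1 (0.88 to 0.97) and 0.87 times in library 2 (0.83 to 0.90). Where these windows lie relative to the polyadenylation site of Fn1 was not placed.

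Beyond the region, the low-coordinate side held more reads than the high-coordinate side. The 20 kb toward Atic had 216 reads in library 1 and 262 in library 2, 1.58-fold and 5.07-fold over background. The 20 kb toward Apol7d had 136 and 82 reads, 0.997-fold and 1.59-fold over background. The ratio of the low to the high side was 1.59 in library 1 (interval 1.28 to 1.98) and 3.20 in library 2 (2.48 to 4.15), 2.39 ± 1.14 on average (SD, n = 2). Of 40 windows on the low side, 2 were called in library 1 and 19 in library 2, and on the high side none and 1. Over the genome 3.41% of windows were called in library 1 and 9.02% in library 2. The 2 calls of library 1 are near its share, so only the 19 of library 2 stood above the genome. The low side did not decline steadily with distance from Fn1. In steps of 5 kb it held 0.604, 0.570, 0.593 and 0.695 RPM per kb in library 1, and 1.37, 0.823, 1.35 and 1.24 in library 2. Reads that ran on from Fn1 and reads of Atic cannot be told apart here, and the edges were set by called windows, so the first windows outside are low by choice.

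Between the libraries, Fn1 differed in its plateau more than in its start peak. Reads were scaled to the windows called in both libraries over the genome, and 410963 windows called in either were compared (two-sided exact binomial test, Benjamini-Hochberg). Of the 150 windows, 111 passed at 0.01, all 111 higher in library 2, none in library 1. Of all windows 1.12% passed, 0.567% higher in library 2 and 0.55% higher in library 1. These shares are not alike in depth. A call needed only 12 reads in library 1 or 7 in library 2, while windows of the region had medians of 71 and 155.5. Windows with few reads can seldom pass this test. The median log2 ratio of library 2 to library 1 was 0.99 in the region and 0.33 over all windows tested. Of the 116 body windows 91 passed, and of the 3 windows of the end peak 1. None of the 3 windows of the start zone did, and the summit window had a log2 ratio of -0.32 (adjusted p = 0.17, exact binomial). Scaled to all collapsed reads instead, 145 of the 150 windows passed, all higher in library 2, and 6.71% of all windows passed. The median log2 ratio was then 1.71 in the region and 1.04 over all windows. On that scale, which is RPM, the summit window was higher in library 2 (23.4 against 17.8 RPM), so its direction turned with the scaling. With 1 library on each side, this test compares these libraries only.

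The shape was then compared apart from the level, with each library scaled to its own reads in the region. Now 5 of the 150 windows passed, all 5 higher in library 1. Under this scaling 7.9% of all windows of the genome passed and 7.87% were higher in library 1, because it moves every other region toward library 1, so the count is read only as a map of where the shape differed. Of the 5, 3 lay at the start. The summit window was 2.40 times as high in library 1 as in library 2 (interval 2.03 to 2.85, adjusted p = 1.1e-21, exact binomial). The window just below it, from 71585501, was 1.86 times as high (1.48 to 2.34), and the window from 71587001, upstream, 2.18 times (1.37 to 3.48). The end peak window from 71516501 was 1.46 times as high (1.21 to 1.76). The remaining one, from 71576001 in the body, had 129 and 164 reads and was 1.55 times as high. Both peaks of the gene thus took a larger share of its reads in library 1, with 4.37% in the start zone against 2.09% in library 2, and 4.11% in the end peak against 3.15%.

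**Figure D4:**
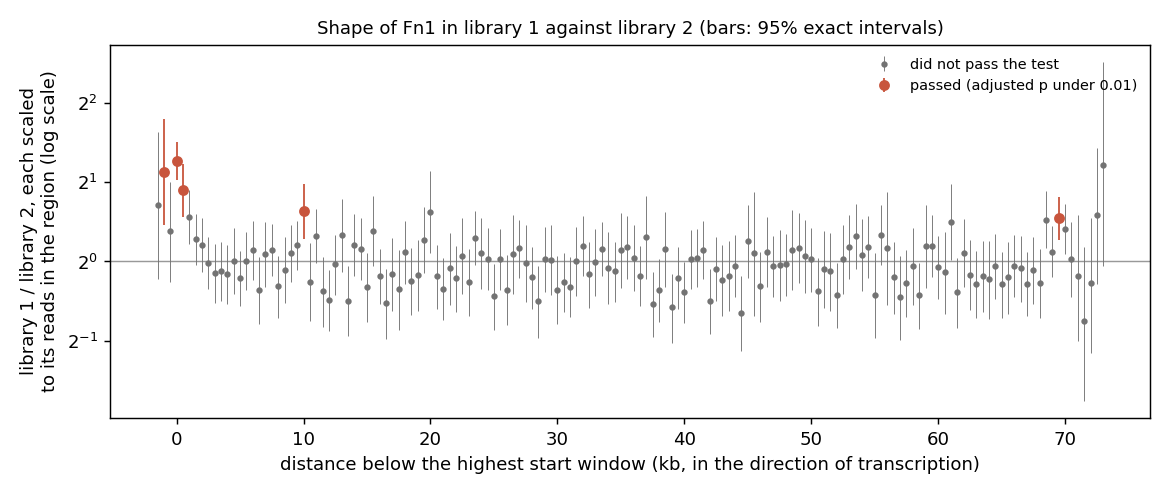
Ratio of library 1 to library 2 in each of the 150 windows of the Fn1 region (vertical axis, log scale), each library scaled to its reads in the region, against the distance in kb below the start window; bars are exact 95% intervals and red points passed the test. The points lie around 1 along the body, and the summit window at 0 kb stands at 2.40.

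Among regions of at least 20 kb called in both libraries, Fn1 was long, dense and, by its highest over its median window in library 2, flat. There were 176 of them, chosen by the same reads, and the values are a description. Called windows were joined over at most 1 uncalled window, so a less dense stretch can be split into several regions. Width thus depends in part on density, and the regions compared here and below need not be whole genes. Fn1 had rank 9 in width, with 75 kb against a median of 27 kb, and its density had rank 8 in library 1 (8.69 RPM per kb, median 2.83) and rank 4 in library 2 (27.5, median 5.66). By the mean of both, 18.1 ± 13.3 RPM per kb (SD, n = 2), it had rank 4, with a median of 4.27. The region with the most reads, on chromosome 2 from 117800501 to 117822500, was denser, at 79.3 ± 41.9 RPM per kb, but spanned 22 kb. The highest window of Fn1 was 4.39 times its median window in library 1, rank 48 of 176, and 1.72 times in library 2, rank 164. The quotient of these values, 2.56, had rank 4, and its median over the 176 was 1.10. On the mean RPM of both libraries, highest over median was 2.23, rank 116. The share of windows over 1 in 2 of the highest was 30.7%, rank 70. Counting error raises highest over median more where windows hold few reads, so these ranks depend in part on density. The level in library 2 was 3.16 times that in library 1, rank 15, against a median of 2.002.

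Peaks at both ends over a lower middle occurred in a minority of these regions. In Fn1 the highest window in the outermost 20% at each end exceeded every window of the middle in both libraries. In library 1 the low-coordinate end reached 198 reads, the high-coordinate end 312 and the middle 116. In library 2 these were 267, 256 and 233, so there the high-coordinate end was only a little above the middle. The same held in both libraries for 22 of the 176 regions, 12.5%, Fn1 included. Taken singly, it held for 36 regions in library 1 and 39 in library 2. How many regions would show it by the order of windows alone was not tested. This count was chosen after the profile of Fn1 was seen.

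No other wide region had a closely similar binned profile. Profiles were the mean RPM in 20 equal bins, compared by Pearson r in the better of both orientations. The highest r of the 175 other regions was 0.68, and the median was 0.27. The 3 most alike were on chromosome 18 from 60716001 to 60751500 (r = 0.68), chromosome 3 from 88562501 to 88590500 (r = 0.66) and chromosome 6 from 30979501 to 31021000 (r = 0.65). They were 35.5, 28 and 41.5 kb wide and held 5.96 ± 3.67, 5.79 ± 1.60 and 10.0 ± 6.20 RPM per kb (SD, n = 2). Each was shorter and less dense than Fn1. These correlations rest on 20 bins and carry no p-value. The bins average out the narrow start peak of Fn1, with 19.0 RPM per kb in the bin at the start and 23.4 in the next. They therefore do not compare that peak, and the mean RPM weighs library 2 more.

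**Figure D5:**
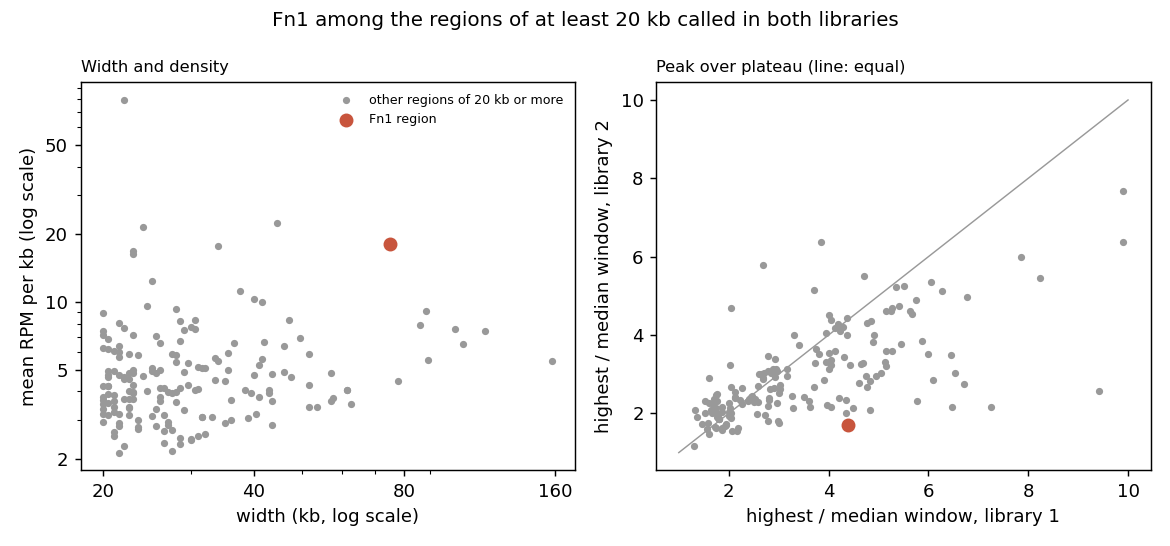
Left, width in kb (horizontal axis, log scale) and mean RPM per kb (vertical axis, log scale) of the 176 regions of at least 20 kb called in both libraries; right, the highest window over the median window in library 1 (horizontal axis) and library 2 (vertical axis), with a line of equal values. Fn1 (red) lies at 75 kb and 18.1 RPM per kb on the left, and at 4.39 and 1.72 on the right, below the line.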

How the data were processed

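The 2 deposited files list read alignments as signed offsets by chromosome, another kind of value than counts or signal. Per the file headers, Bowtie placed reads on mm8 and kept those with at most 2 sites (-m 2, -k 2, -n 2, -l 36, -e 70, --best). Its version was not given in these sources. Each offset was read as a 0-based left end of a 36-base read. Reads placed at 1 site were collapsed to 1 per start and strand, their 5′ ends shifted 60 bp downstream and counted in 500 bp windows. RPM divides by the collapsed reads on nuclear chromosomes, in units of 1000000. Called windows were removed in 3 rounds to get the background mean. Library 1 had 17548967 and library 2 10941174 such reads, and at least 12 and 7 reads made a call. Ratios carry exact conditional binomial intervals at 95%. The tests were checked on counts simulated with counting error only. Windows of these data varied by more than that, so the check does not show how well the p-values hold here. Software was SciPy 1.17.1 with NumPy 2.4.6 under Python 3.11.15, and matplotlib 3.10.9 for plots.

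Fn1, its zones, the tests and the lists were chosen with earlier results of these data known. Named windows are the highest of the start, body and end and the lowest of the body; compared regions are the one with the most reads and the 3 of at least 20 kb most alike in profile. The windows from the lists of the difference test and those at the edges were named after their values were seen. Lists of matrix genes and cell type markers depended on an annotation of mm8 and were not evaluated. Alternatives changed the collapsing, shift, window, background, threshold, scaling, zones and flanks, added reads placed at 2 sites, or left out a library.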

Additional observations from a re-analysis of the deposited data

Results flagged for a closer look

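Reads placed at 2 sites entered no main comparison, only the alternative that added them. In the Fn1 region library 1 had 60 such alignments and library 2 had 110, repeated starts collapsed, above the 3 counts that a count of 0 would allow. They made up 0.522% and 0.485% of all alignments there, against 5.40% and 4.57% over the genome. They fell in 27 and 43 of the 150 windows, and the window from 71569501 to 71570000 held the most in both, 9 and 20, beside 60 and 171 reads placed at 1 site. No control sample was available for comparison, and their source was not tested.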

How the results depend on the processing

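No paired analysis was possible because both libraries belong to 1 group. Of 75 values under alternatives, 67 kept within the SD between the libraries, within 1.5 times for counts, or, for the start flanks, only their direction and side of the threshold. With n = 2, leaving out a library cannot move a mean beyond that SD, so those values were kept by construction. The SD was also wide, 998 RPM for the level and 0.89 for start over body. The count of 67 therefore does not measure robustness. With windows of 1000 bp all 75 windows were called in both libraries and 70 differed between them, since there are fewer windows. Of all windows compared in the genome, 1.96% differed at that size. The end peak then stood at 1.32 times the body. The start flanks then fell from a mean log2 ratio of 4.198 to 1.25, read at a summit inside the gene. Start over body was 1.45 in library 1, whose zone was placed by a highest window of library 2 inside the gene, and 0.76 in library 2, with the zone at the same start but wider. Scaled to the reads of the Fn1 region alone, 5 windows differed, all higher in library 1, where the 111 of the genome-wide scaling were all higher in library 2. The summit window alone stood at 2.98 times the body. The body gradient, whose spread between libraries was 0.005, was 1.15 with all reads kept, 1.11 from 5 kb on and 1.12 without the stretches lacking read starts. The last of these and the end peak were added after the data were seen. Under a threshold of 0.0001, 148 windows were called in both, and 133 against a local background that includes windows of Fn1 itself. Leaving out a library gave 1.02 to 2.28 for start over body, 1.54 to 2.14 for the end peak, 1.59 to 3.20 for the low over the high flank and 652 to 2064 RPM for the level. Depth limits windows outside the region, where most held under 12 reads in library 1 and under 7 in library 2.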
